A study of Sus scrofa with 13 samples.

Results

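Newborn pig muscle without dystrophin was compared with wild-type muscle of the same age. The comparison takes 7 of the 13 arrays of the series, chosen by their labels: the 4 arrays labelled dystrophin knockout (DMD KO) and the 3 labelled wild type (WT) at an age of 2 days. All animals were German Landrace pigs, the tissue was the biceps femoris, and total RNA of each animal was measured on 1 whole-transcript array. The other 6 arrays, 3 DMD KO and 3 WT at 3 months, entered the fit, where they add to the estimate of spread behind every p-value. Apart from that they are used below only to ask whether a difference at 2 days also held later.

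The knockout piglets came from nuclear transfer with transgenic primary kidney cells, in which exon 52 of DMD had been deleted by way of a bacterial artificial chromosome. The deletion is thus not limited to muscle, and the number of cell clones or litters behind the 4 animals is unknown here. Muscle of DMD KO piglets was collected by necropsy immediately after they had died, whereas the WT piglets were euthanised. Genotype, cloning and manner of death cannot be told apart in any value below. The replicates are separate animals by their labels. The p-values set a difference against the spread between animals inside each group. That spread was estimated from all 13 arrays, not from the 7 newborn ones alone.

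Dystrophin is the long rod-shaped protein under the membrane of the muscle fibre that joins the actin cytoskeleton, through a complex of membrane proteins, to the laminin of the surrounding matrix. Fibres that lack it tear more easily and let calcium in, and the muscle passes through rounds of fibre death, inflammation and repair, with growing deposits of connective tissue. Newborn muscle is at the same time a fast growing tissue, in which protein is laid down, satellite cells divide and the matrix between fibres is built.

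Of 21893 probe sets, 2175 (9.93%) passed at a Benjamini-Hochberg adjusted p under 0.05 in limma, which is what "called" means here. With 1 probe set kept per gene symbol, 1170 of 10283 named genes (11.4%) were called, 829 higher in DMD KO (8.06%) and 341 lower (3.32%). The median difference over all named genes was -0.02 on the log2 scale. Among called genes the median difference was 0.74 for those that rose and -0.67 for those that fell, and 201 rose and 77 fell by more than 1 log2 unit. Values of the groups did not overlap in 2768 of all named genes (26.9%). Values are given as deposited log2 levels, in the order of the replicate numbers. A fold is given only where the dimmer group had a mean above the 25th percentile of the 2-day arrays (6.54 to 6.61), because signal over background was not analysed here.

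WT replicate 3 stood apart from the other 2-day arrays. Its mean correlation with them across probe sets was 0.915, against 0.960 to 0.967 for the other 6, and its 95th percentile was 9.21, against 9.59 to 9.76. Without it 426 of the 829 rises and 214 of the 341 falls kept their call. The count of rises was 428 without it and 526, 519 and 451 without DMD KO replicate 2, 3 or 4, and the count of falls was 201, 192 and 179 without those 3. Whichever 1 of the 7 animals was left out, 378 rises and 149 falls kept their call.

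**Figure D1:**
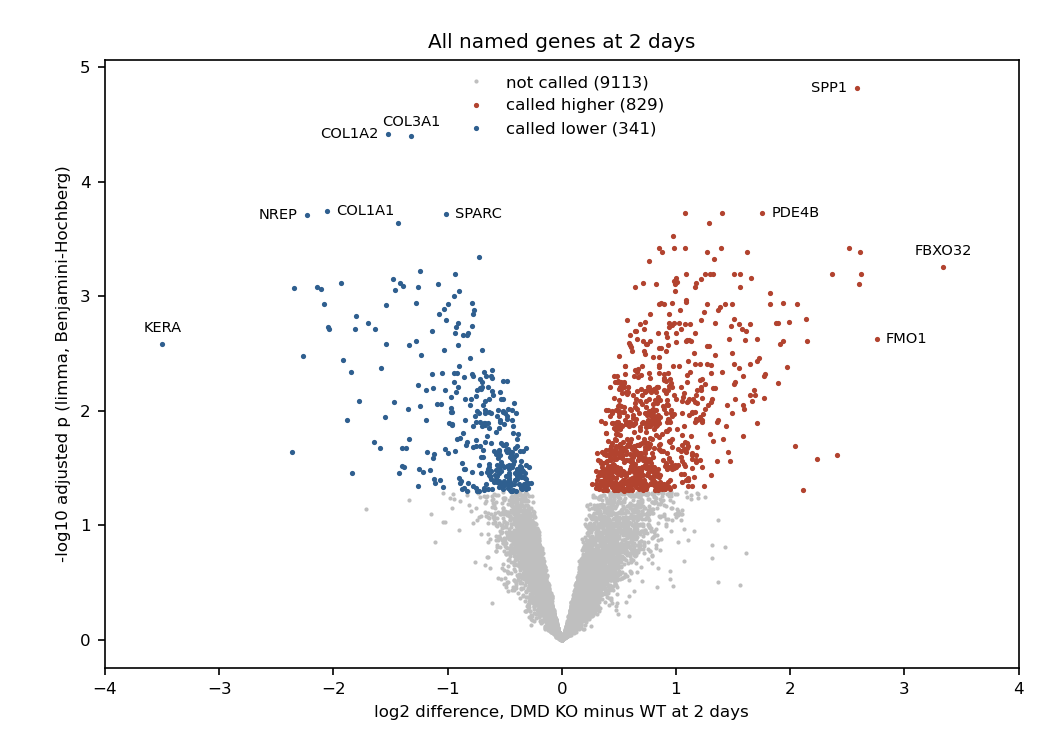
All 10283 named genes at 2 days, with the log2 difference of DMD KO minus WT on the x axis and the -log10 of limma's adjusted p on the y axis. The 829 called rises (red) outnumber the 341 called falls (blue), and SPP1, COL1A2 and COL3A1 have the lowest adjusted p.

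The labelled tissue was checked first. The 7 measured markers of skeletal muscle, among them skeletal actin and the ryanodine receptor, had mean levels of 11.6, 11.8, 11.5 and 11.8 in DMD KO replicates 1 to 4 and 11.8, 11.6 and 11.5 in WT replicates 1 to 3. The ranges of the groups overlap for this mean, while of the single markers 1 was called higher and 2 lower (1 without WT replicate 3), and 4 did not overlap. DMD itself does not check the genotype, because it is not known here whether its probe sets lie in the part that was deleted. Its brighter probe set read 12.08, 12.30, 12.11 and 12.21 in DMD KO and 12.38, 12.29 and 11.53 in WT, which overlap (difference 0.11 ± 0.17, SE, limma's adjusted p = 0.705). That difference turned to -0.16 without WT replicate 3 and to -0.13 with array weights, and was called in neither. UTRN, utrophin, the close relative that can take the place of dystrophin, read 8.32, 8.40, 8.15 and 8.53 in DMD KO and 8.21, 8.43 and 7.93 in WT (difference 0.16, adjusted p = 0.582, and 0.03 without WT replicate 3).

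Of 8 measured genes of the dystrophin complex, 2 rose (25% against 8.06% of all named genes) and none fell. Under quantile normalization 1 was called in each direction. The 2 rises were those of LAMA2 and SSPN, while DMD, UTRN, SGCA, SGCB, SGCE and SNTB1 were not called. LAMA2, the laminin chain to which the complex binds, read 11.09, 11.36, 11.29 and 11.37 in DMD KO and 10.72, 10.50 and 9.32 in WT. The groups did not overlap, and the difference was 1.10 ± 0.25 (SE, limma's adjusted p = 0.0191). Without WT replicate 3 it was 0.67 (adjusted p = 0.013), and without DMD KO replicate 4 it was 1.06 with an adjusted p of 0.0537. SSPN, sarcospan, rose by 0.61 (adjusted p = 0.0383), a call that was lost when any animal but WT replicate 1 was left out (highest adjusted p = 0.162, without WT replicate 3).

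Genes of muscle protein breakdown rose in the newborn knockout. The list of atrophy ubiquitin ligases and FOXO factors had 6 of 11 measured genes called higher and none lower, or 54.5% against 8.06% of all named genes, with a median difference of 0.79. Leaving out any of the 7 animals left the count at 6. FBXO32 (atrogin-1), the ubiquitin ligase that tags muscle proteins for degradation during wasting, read 9.75, 9.80, 10.58 and 10.998 in DMD KO and 7.36, 6.84 and 6.64 in WT. The gap between the groups was more than 2 log2 units wide, and the mean was 10.1-fold higher in DMD KO (3.34 ± 0.39, SE, limma's adjusted p = 0.000562). FOXO3, the transcription factor that switches on FBXO32 and autophagy genes when insulin signalling is low, read 9.46, 9.30, 9.19 and 9.85 in DMD KO and 8.31, 8.01 and 7.58 in WT. It was 2.8-fold higher (1.48 ± 0.22, adjusted p = 0.00183). FBXO30, a ligase known from wasting muscle, was 2.81-fold higher (adjusted p = 0.0105), with DMD KO replicate 4 at 11.37 above the others at 10.69 to 10.80. ZFAND5, which stimulates the proteasome, was 2.06-fold higher (adjusted p = 0.00194). FBXO21, a further ligase subunit, and TRAF6, a ligase of inflammatory signalling, rose by 0.98 and 0.79 (adjusted p = 0.00733 and 0.0103).

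Autophagy genes rose with them. Autophagy wraps parts of the cell in a membrane and delivers them to the lysosome, and proteins of the LC3 and GABARAP families coat that membrane. In this list 8 of 26 measured genes were called higher (30.8%) and none lower, and the count stayed between 6 and 10 when 1 animal was left out. GABARAPL1 read 11.85, 11.87, 12.25 and 12.58 in DMD KO and 9.85, 9.91 and 8.86 in WT, 6.06-fold higher (adjusted p = 0.000785). Its relative GABARAP varied less between animals, at 11.39, 11.36, 11.51 and 11.48 in DMD KO and 10.57, 10.69 and 10.49 in WT, and was 1.8-fold higher (adjusted p = 0.000377). The members of this family are alike in sequence, and how far their probe sets share signal was not tested. RETREG1, a receptor that feeds the endoplasmic reticulum into autophagy, read 9.86, 9.66, 10.26 and 10.69 in DMD KO and 7.38, 8.04 and 7.07 in WT, and was 6.15-fold higher (adjusted p = 0.000643). MAP1LC3B, an LC3 protein, and SQSTM1 (p62), the receptor that brings tagged proteins to it, were 2.07-fold and 1.94-fold higher (adjusted p = 0.0105 and 0.00994). ATG14, which directs the lipid kinase that starts the membrane, rose by 0.92 (adjusted p = 0.00801). ULK1, the kinase that starts autophagy, differed by -0.01 (adjusted p = 0.934).

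The proteasome, the machine that degrades the tagged proteins, had 10 of 25 measured genes called higher (40.0%) and none lower, with a median of 0.52. Without WT replicate 3 there were 5 (median 0.31), and without DMD KO replicate 1 or 3 there were 6. PSME4 (PA200), an activator cap of the proteasome, read 10.99, 10.87, 10.72 and 11.68 in DMD KO and 9.77, 9.42 and 8.33 in WT. It was 3.71-fold higher (limma's adjusted p = 0.00569, and 0.0167 without WT replicate 3). PSMA6, a subunit of the catalytic core, and PSMC1, an ATPase of the cap, were 2.00-fold and 1.87-fold higher (adjusted p = 0.00797 and 0.00544).

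**Figure D2:**
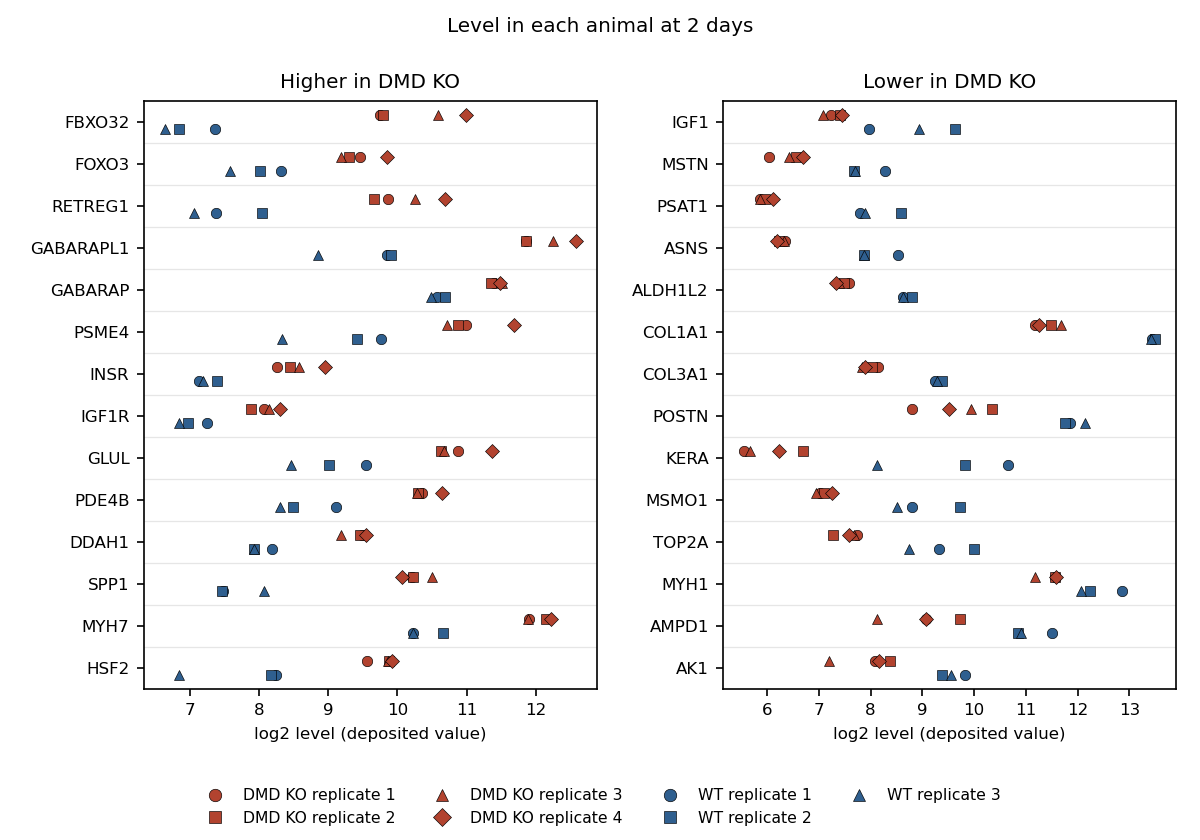
Deposited log2 level (x axis) of 14 genes called higher and 14 called lower in DMD KO, with 1 symbol per animal at 2 days (red DMD KO, blue WT). In each row shown the 4 DMD KO animals lie apart from the 3 WT animals, for example at 9.75 to 10.998 against 6.64 to 7.36 for FBXO32. Such separation was a condition for naming the largest rises and falls, and holds for 1148 of the 1170 called genes.

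The receptors and the ligand of growth signalling moved in opposite directions. Insulin and insulin-like growth factor 1 act through related receptors that drive protein synthesis and hold FOXO factors out of the nucleus. INSR, the insulin receptor, read 8.26, 8.44, 8.58 and 8.96 in DMD KO and 7.13, 7.40 and 7.19 in WT. It was 2.5-fold higher (1.32 ± 0.16, SE, limma's adjusted p = 0.000647). IGF1R, the receptor for the growth factor, read 8.08, 7.89, 8.15 and 8.31 in DMD KO and 7.24, 6.98 and 6.84 in WT, and was 2.12-fold higher (adjusted p = 0.000643). The growth factor IGF1 was lower, at 7.23, 7.41, 7.07 and 7.45 in DMD KO and 7.97, 9.63 and 8.93 in WT, a 2.93-fold difference (adjusted p = 0.0113). All of these kept their call whichever animal was left out.

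In the list of insulin and IGF signalling as a whole, 7 of 26 measured genes were higher (26.9%) and 2 lower (7.69% against 3.32%). The falls were 1 in 6 of the 7 fits that left out 1 animal and under median centring, and the list's median changed sign under quantile normalization (0.12 and -0.03) and was 0.02 without WT replicate 3. The count of rises fell to 4 without DMD KO replicate 4 or WT replicate 1. ARRDC3, an arrestin-like protein that takes receptors off the cell surface, was 5.16-fold higher, at 9.79, 10.20, 10.15 and 10.25 in DMD KO and 8.18, 7.93 and 7.09 in WT (adjusted p = 0.000643). SESN1, a sestrin that restrains mTORC1 and is a FOXO and p53 target, was 3.02-fold higher (adjusted p = 0.0097). MSTN (myostatin), the secreted brake on muscle mass, was lower, at 6.03, 6.55, 6.42 and 6.70 in DMD KO and 8.27, 7.67 and 7.70 in WT (difference -1.46 ± 0.19, adjusted p = 0.000882). It was the 1 called gene of 32 measured in the TGF-beta, BMP and activin list, which had 3 falls without WT replicate 2 and 2 without WT replicate 3.

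Hormone-linked and clock genes gave a smaller set of rises. GLUL, the synthetase that binds ammonia into glutamine, read 10.87, 10.64, 10.68 and 11.37 in DMD KO and 9.55, 9.01 and 8.47 in WT, 3.68-fold higher (adjusted p = 0.00171). HSD11B1, the enzyme that regenerates active cortisol inside the cell, was 2.25-fold higher, at 7.91, 7.94, 7.79 and 7.98 against 7.0, 6.83 and 6.38 (adjusted p = 0.000831). FKBP5, a glucocorticoid-induced chaperone partner, was 4.33-fold higher at an adjusted p of 0.049, a call that was lost when any animal but WT replicate 1 was left out (highest adjusted p = 0.213, without WT replicate 3, at a difference of 1.49). Those 3 were the called genes among 15 measured in the glucocorticoid list (20%). PER1, a clock gene that the hormone induces as well, differed by 0.17 (adjusted p = 0.307). RORA, a nuclear receptor of the clock, was 2.85-fold higher, at 10.06, 9.94, 9.82 and 10.45 against 9.20, 8.60 and 7.87 (adjusted p = 0.00556). BHLHE41, a repressor of the clock, rose by 1.89 ± 0.28 (adjusted p = 0.00171). They were the 2 called of 14 measured clock genes, and the hour of sampling is unknown here. Of 22 hypoxia-responsive genes 4 rose (2 without DMD KO replicate 2) and 1 fell (2 without WT replicate 3), among the rises MXI1, an antagonist of MYC, at 2.65-fold and KDM3A, a histone demethylase, at 2.22-fold (adjusted p = 0.00457 and 0.00797). VEGFA, the vessel growth factor that low oxygen induces, differed by 0.38 (adjusted p = 0.29), and passed without DMD KO replicate 4 (0.64, adjusted p = 0.0273).

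Enzymes that make serine, asparagine and folate-bound carbon units were lower. PSAT1, the aminotransferase of serine synthesis, read 5.86, 5.96, 5.86 and 6.12 in DMD KO and 7.80, 8.59 and 7.88 in WT (difference -2.15 ± 0.28, SE, limma's adjusted p = 0.000831). The 4 DMD KO values lie within 0.26 of each other and below every WT value. ASNS, asparagine synthetase, read 6.34, 6.23, 6.33 and 6.20 in DMD KO and 8.53, 7.87 and 7.87 in WT (difference -1.81, adjusted p = 0.00192). ALDH1L2, a mitochondrial folate enzyme, read 7.58, 7.49, 7.38 and 7.33 in DMD KO and 8.63, 8.80 and 8.62 in WT, and was 2.36-fold lower (adjusted p = 0.000609). PSPH, which completes serine synthesis, fell by 0.70 (adjusted p = 0.00556).

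These enzymes are known targets of the transcription factor ATF4, whose own transcript was not lower. ATF4 read 8.99, 9.28, 9.23 and 9.60 in DMD KO and 8.79, 8.79 and 8.47 in WT, a rise of 0.59 (adjusted p = 0.0136, and 0.0572 without WT replicate 3). CTH, the enzyme that makes cysteine from cystathionine, rose by 1.33 ± 0.15, from 5.42, 6.06 and 5.99 in WT to 7.14, 7.08, 6.93 and 7.45 in DMD KO (adjusted p = 0.000478). Over the list of 25 measured genes of serine synthesis and ATF4 targets, 3 were higher and 5 lower (20% against 3.32%). The rises were 1 without WT replicate 3. DDIT3 (CHOP), the stress factor downstream of ATF4, differed by -0.02 (adjusted p = 0.917).

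**Figure D3:**
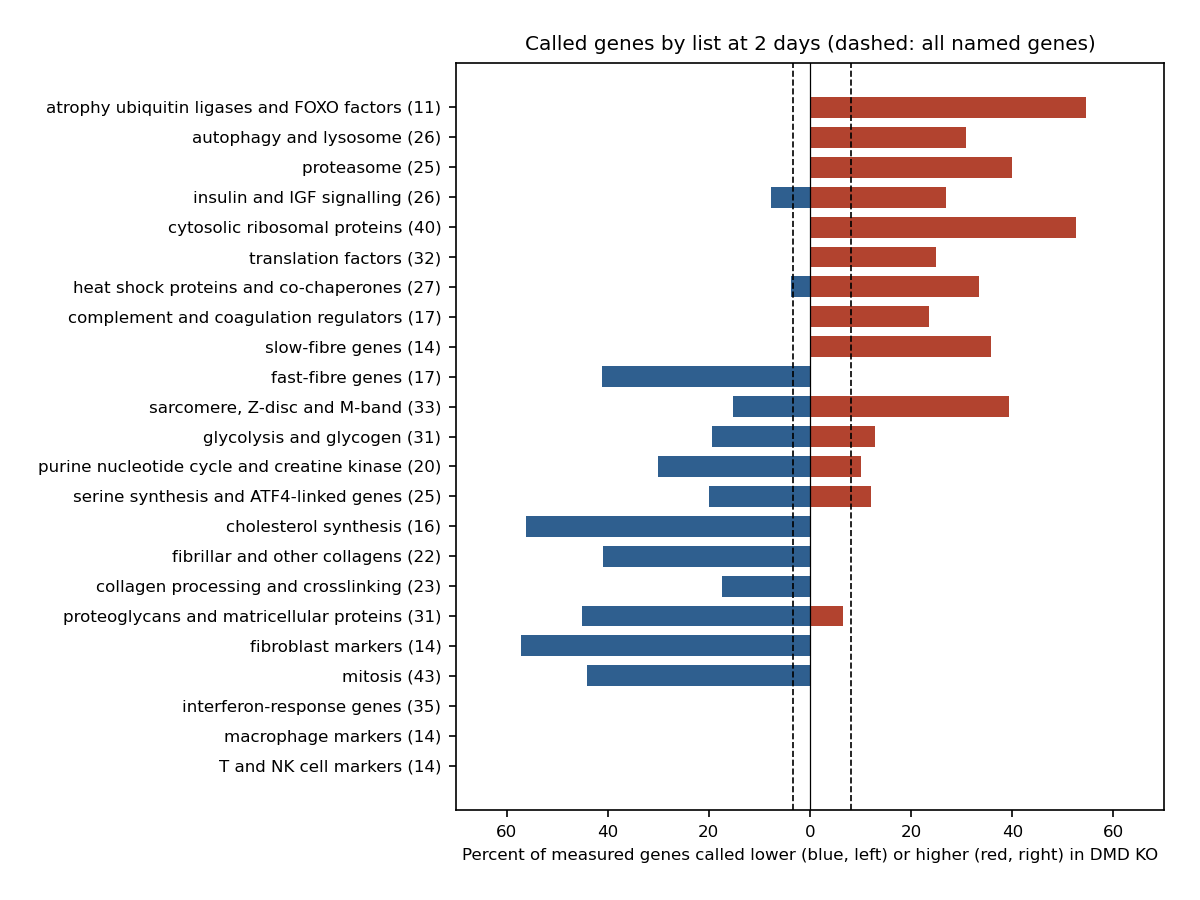
Percent of the measured genes of each list (number in brackets) that was called higher (red, to the right) or lower (blue, to the left) in DMD KO at 2 days, with dashed lines at 8.06% and 3.32%, the shares over all named genes. Rises dominate in the breakdown, ribosome and slow-fibre lists, falls in the matrix, cholesterol, mitosis and fast-fibre lists, and the interferon, macrophage and T cell lists have no call.

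Genes of the matrix between the fibres fell. Of 22 measured collagen genes 9 fell and none rose (40.9% against 3.32%), all 22 had a negative difference, and the count of falls stayed between 7 and 10 when 1 animal was left out. COL1A1, the main chain of the fibrillar collagen I, read 11.18, 11.49, 11.68 and 11.24 in DMD KO and 13.44, 13.50 and 13.42 in WT. It was 4.17-fold lower (-2.06 ± 0.18, SE, limma's adjusted p = 0.000179). COL1A2, its partner chain, read 8.52, 8.55, 8.49 and 8.47 in DMD KO and 10.16, 10.08 and 9.85 in WT, 2.88-fold lower (adjusted p = 3.86e-05). COL3A1, the chain of the fine fibrils of collagen III, read 8.15, 8.03, 7.83 and 7.90 in DMD KO and 9.24, 9.37 and 9.28 in WT, 2.5-fold lower (adjusted p = 3.99e-05). After SPP1, COL1A2 and COL3A1 had the lowest adjusted p of all named genes. COL15A1, which links fibrils to the basement membrane, was 4.32-fold lower, and COL5A2, which starts collagen fibrils, 1.66-fold lower (adjusted p = 0.00087 and 0.000454). COL4A1, a collagen of the basement membrane, differed by -0.01 (adjusted p = 0.974).

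Genes of collagen assembly fell too. SPARC, a collagen chaperone outside the cell, read 10.49, 10.41, 10.30 and 10.58 in DMD KO and 11.48, 11.50 and 11.40 in WT, 2.02-fold lower (adjusted p = 0.000192). LOX, the enzyme that crosslinks collagen and elastin, read 8.58, 9.05, 9.13 and 9.09 in DMD KO and 9.95, 9.96 and 9.79 in WT, 1.91-fold lower (adjusted p = 0.00208). FKBP10, a folding enzyme of collagen, was 1.6-fold lower (adjusted p = 0.00456). In the list of collagen processing and crosslinking 4 of 23 fell (17.4%) and none rose.

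Among small leucine-rich proteoglycans and matricellular proteins 14 of 31 measured genes fell (45.2%) and 2 rose, or 11 and 1 without WT replicate 3. POSTN (periostin), a matrix protein of growing and healing tissue, read 8.80, 10.35, 9.95 and 9.52 in DMD KO and 11.86, 11.76 and 12.14 in WT, 4.81-fold lower (adjusted p = 0.00332). KERA (keratocan), a leucine-rich proteoglycan first known from the cornea, read 5.55, 6.69, 5.67 and 6.24 in DMD KO and 10.66, 9.82 and 8.13 in WT, the deepest fall of all named genes (-3.50 ± 0.56, adjusted p = 0.00264). Its WT animals differed from each other by over 2 log2 units, with replicate 3 the lowest, and all 4 DMD KO animals lay below them. ASPN and FMOD, proteoglycans that bind collagen fibrils, were 4.13-fold and 3.59-fold lower (adjusted p = 0.00187 and 0.00456). LUM, DCN and BGN, the abundant lumican, decorin and biglycan, were 2.2-fold, 1.93-fold and 1.72-fold lower (adjusted p = 0.002, 0.000988 and 0.00183). FN1 (fibronectin), the scaffold on which collagen is laid down, was 1.77-fold lower, at 8.79, 8.77, 8.72 and 8.73 against 9.61, 9.75 and 9.38 (adjusted p = 0.00219). VCAN (versican), a proteoglycan of loose young matrix, was 2.77-fold lower (adjusted p = 0.00837).

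The 2 rises of this list were SPP1 and THBS1. SPP1 (osteopontin), a secreted protein of mineralised matrix and of inflammation, read 10.21, 10.23, 10.50 and 10.07 in DMD KO and 7.48, 7.46 and 8.07 in WT. It was 5.99-fold higher (2.58 ± 0.17, SE, limma's adjusted p = 1.51e-05), the lowest adjusted p of any named gene. THBS1 (thrombospondin 1), an activator of latent TGF-beta, rose by 0.77 (adjusted p = 0.0267) and lost its call in 5 of the 7 fits that left out 1 animal (highest adjusted p = 0.0811, without WT replicate 3).

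Fibroblast markers were lower along with the matrix genes. Of 14 measured fibroblast markers 8 fell and none rose, with a median of -0.66 and mean levels of 8.78 to 8.96 in DMD KO and 9.53 to 9.67 in WT. However, 7 of those 8 are themselves matrix genes of the lists above. The exception was THY1, a surface protein of fibroblasts, which read 6.29, 6.87, 6.53 and 6.61 in DMD KO and 7.58, 7.87 and 8.07 in WT (difference -1.26 ± 0.16, adjusted p = 0.00083). CD34, a surface protein of fibroblasts and vessel cells, differed by -0.15 (adjusted p = 0.414). In bulk tissue fewer cells of a type and less RNA per cell cannot be told apart, and the part of fibroblast number in these falls was not tested. Tendon and cartilage markers fell in 3 of 10 (30% against 3.32%), with mean levels of 7.30 to 7.38 in DMD KO and 7.95, 8.09 and 8.54 in WT. Those 3 were CHAD, FMOD and KERA, and FMOD and KERA are already counted in the proteoglycan list above.

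Other secreted or stromal genes fell beside them. ANGPTL1, an angiopoietin-like protein, read 7.15, 7.43, 7.14 and 7.27 in DMD KO and 9.66, 9.53 and 8.66 in WT, 4.1-fold lower (adjusted p = 0.00192). NREP (P311), a small protein found in muscle and neural tissue, read 7.66, 8.29, 7.52 and 7.82 in DMD KO and 10.03, 10.30 and 9.83 in WT, 4.7-fold lower (adjusted p = 0.000196). CCDC80 and LRRC17 were chosen after their values were seen. CCDC80, a secreted matrix-binding protein, was 2.99-fold lower (adjusted p = 0.00427). LRRC17, a secreted leucine-rich repeat protein, read 5.23, 5.52, 5.31 and 5.27 in DMD KO and 7.15, 7.17 and 7.09 in WT (difference -1.80, adjusted p = 0.0015), with a spread inside each group of under 0.3.

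In older animals part of these genes were higher. At 3 months 15 of the same 31 proteoglycan and matricellular genes and 6 of the 22 collagens were called higher in DMD KO and none lower, against 5.76% of all named genes called higher and 1.6% lower at that age. The change of the genotype difference between ages (3 months minus 2 days) was called for 17 of the 31 and 8 of the 22, against 634 of 10283 named genes (6.17%). POSTN went from -2.27 at 2 days to 2.52 at 3 months (adjusted p = 0.000382 for the change). FN1 went from -0.83 to 1.96 (adjusted p = 9.91e-06) and LOX from -0.93 to 1.63 (adjusted p = 3.46e-05). COL3A1 changed from -1.32 to 1.07 (adjusted p = 9e-06). For COL1A1 the later difference of 0.44 did not pass by itself (adjusted p = 0.238), while its change between ages did (adjusted p = 0.000229). The difference of SPP1 was 3.00 at 3 months, and the change between ages was not called (0.42, adjusted p = 0.507).

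**Figure D4:**
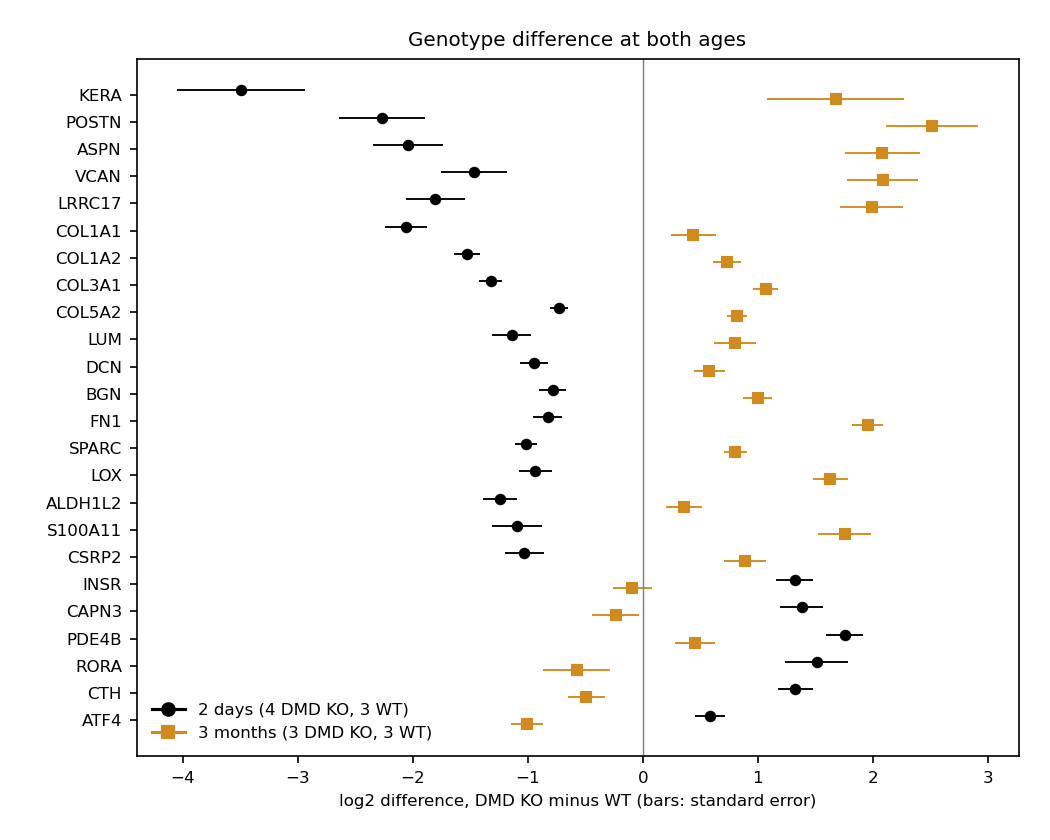
Log2 difference of DMD KO minus WT (x axis, bars are the standard error of limma) at 2 days (black circles) and at 3 months (orange squares) for 24 genes whose genotype difference changed between ages. The matrix genes in the upper rows lie below 0 at 2 days and above 0 at 3 months, for example POSTN at -2.27 and 2.52.

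Of the 1170 named genes called at 2 days 330 had a called change between ages, against 634 of all 10283 (6.17%). The 1170 were selected by the 2-day difference, which is part of that change, so a higher share is built in. At 3 months 757 genes were called. Of these, 99 were called in the same direction at 2 days and 92 in the opposite one, where 11.4% of all named genes were called at 2 days. Of 30 measured genes of membrane repair 3 rose (10% against 8.06% of all named genes) and 3 fell (10% against 3.32%) at 2 days. Among the falls, S100A11 and ANXA1, calcium-binding proteins that serve membrane repair, fell at 2 days by 1.10 and 0.93 (adjusted p = 0.00877 and 0.0226) and were higher by 1.76 and 1.57 at 3 months (adjusted p = 0.000323 and 0.000951 for the change). The call of ANXA1 was lost without DMD KO replicate 2 (adjusted p = 0.0563) or 3 (adjusted p = 0.0516). INSR, RORA and CAPN3, the muscle calpain, rose at 2 days and had differences of -0.09, -0.57 and -0.23 at 3 months, none of which passed, with adjusted p of 0.00443, 0.00958 and 0.00543 for the change. CAPN3 itself read 10.45, 10.12, 9.98 and 10.62 in DMD KO and 9.33, 8.93 and 8.46 in WT at 2 days, 2.61-fold higher (adjusted p = 0.00125). ATF4 went from 0.59 to -1.01 (adjusted p = 0.000444 for the change). FMO1, a flavin-containing monooxygenase, read 10.60, 10.87, 10.31 and 10.80 in DMD KO and 8.56, 8.26 and 6.84 in WT, 6.78-fold higher (adjusted p = 0.00237), and differed by -0.38 at 3 months (adjusted p = 0.0119 for the change).

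Genes of cholesterol synthesis fell. Of 16 measured genes 9 fell and none rose (56.3% against 3.32%), 14 of the 16 differences were negative, the median was -0.61, and the falls numbered 7 to 9 when 1 animal was left out. A rise joined them without WT replicate 2, under quantile normalization, with array weights, or with only probe sets above the median level. Under that last filter 5 fell and the median was -0.47. How many of the 16 passed the filter was not counted here. MSMO1, a sterol oxidase late in the pathway, read 7.02, 7.09, 6.94 and 7.25 in DMD KO and 8.80, 9.72 and 8.51 in WT, 3.82-fold lower (limma's adjusted p = 0.000764). CYP51, the lanosterol demethylase, read 7.84, 7.75, 7.53 and 7.89 in DMD KO and 9.20, 9.48 and 9.03 in WT, 2.79-fold lower (adjusted p = 0.000703). SQLE, the squalene epoxidase that commits carbon to sterols, read 6.36, 6.66, 6.53 and 6.50 in DMD KO and 8.17, 9.22 and 7.89 in WT (difference -1.91, adjusted p = 0.00361). In all 3 the DMD KO animals lay close together, WT replicate 2 was the highest, and the groups did not overlap. SC5D, the desaturase near the end, differed by -1.70 (adjusted p = 0.00173). HMGCS1, at the start of the pathway, was 2.18-fold lower (adjusted p = 0.026), and its call was lost without DMD KO replicate 2, 3 or 4 or WT replicate 2 (highest adjusted p = 0.0659). In the list of fatty acid synthesis and fat storage 4 of 26 were higher and 4 lower, or 2 and none without WT replicate 3.

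Genes of dividing cells fell. Of 43 measured mitosis genes 19 fell and none rose (44.2% against 3.32%), with a median of -0.53, and 42 of the 43 differences were negative. The count was sensitive to single animals, at 4 without DMD KO replicate 2 or 4, 7 without WT replicate 2, 9 without DMD KO replicate 3 and 13 to 17 without one of the rest, while the median stayed between -0.66 and -0.40. TOP2A, the topoisomerase that untangles chromosomes, read 7.74, 7.28, 7.68 and 7.59 in DMD KO and 9.32, 9.998 and 8.75 in WT, 3.43-fold lower (adjusted p = 0.00818). KIF15, a motor of the spindle, read 5.90, 5.51, 5.95 and 5.82 in DMD KO and 7.25, 7.70 and 7.06 in WT (difference -1.54, adjusted p = 0.00259). KIF11, the motor that pushes spindle poles apart, fell by 1.64 (adjusted p = 0.0188), with an adjusted p of 0.0507 without DMD KO replicate 2 and 0.0569 without replicate 4. The mean level over the list was 6.33 to 6.53 in DMD KO, below the 25th percentile of the arrays. When only probe sets above the median level were kept, 2 mitosis genes were called lower and the median was -0.25. How many of the 43 passed that filter was not counted here.

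DNA replication genes gave fewer calls, with 4 of 26 lower and none higher, and 1 without DMD KO replicate 2 or 4 and 2 without DMD KO replicate 3. Without WT replicate 2 there were 2 lower and 2 higher, and with only probe sets above the median level none was called. PCLAF, a partner of the replication clamp, read 6.06, 5.65, 5.69 and 4.93 in DMD KO and 7.46, 8.72 and 7.67 in WT (difference -2.36, adjusted p = 0.0229). Its call was lost without DMD KO replicate 2, 3 or 4 or WT replicate 2 (highest adjusted p = 0.069). The list of cell cycle brakes and p53-linked genes leaned the other way, with 5 of 17 higher and 1 lower. These were 2 and 1 without WT replicate 3, or without DMD KO replicate 2, 3 or 4. Among the rises was MDM4, which restrains p53 and is not itself a brake, at 2.24-fold (adjusted p = 0.0102). Myogenic and satellite cell genes had 5 of 24 higher (20.8% against 8.06%) and none lower. Their differences split into 12 positive and 12 negative, with a median of 0.02. There were 3 higher without DMD KO replicate 4, and 3 higher and 1 lower without WT replicate 3 or under quantile normalization. Among the rises was DLK1, an imprinted regulator of muscle growth. It read 9.12, 9.12, 8.74 and 8.66 in DMD KO and 8.32, 8.28 and 8.26 in WT, 1.54-fold higher (adjusted p = 0.0109). MYOG, the factor that drives muscle differentiation, differed by 0.25 (adjusted p = 0.102).

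**Figure D5:**
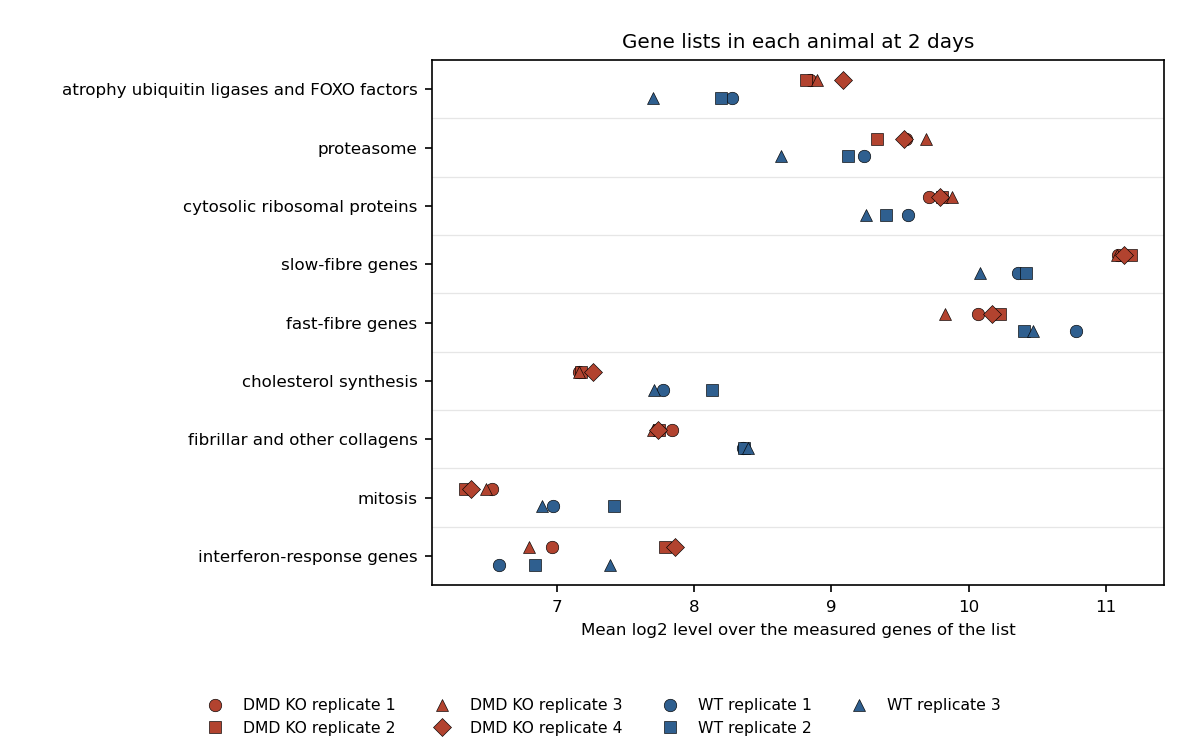
Mean log2 level over the measured genes of 9 lists (x axis), with 1 symbol per animal at 2 days (red DMD KO, blue WT). The groups do not overlap in 8 of the lists, whereas in the interferon list DMD KO replicates 2 and 4 and WT replicate 3 are the highest animals.

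Slow-fibre genes rose and fast-fibre genes fell. Slow fibres use the slow myosin and troponin isoforms and work by oxidation, fast fibres use the fast isoforms and more glycolysis. Of 14 measured slow-fibre genes 5 rose (35.7%) and none fell, with a median of 0.88. Those 5 were MYH7, TNNC1, CASQ2, ACTN2 and LMOD2. Of them, ACTN2 and LMOD2 are also counted in the sarcomere list below, and ACTN2 is not limited to slow fibres. Of 17 fast-fibre genes 7 fell (41.2%) and none rose, with a median of -0.41. The slow rises numbered 3 without DMD KO replicate 2 or 3 or WT replicate 3 and under quantile normalization, and the fast falls 5 to 7 over the animals left out, with 1 rise without DMD KO replicate 3 or WT replicate 1. MYH7, the slow myosin heavy chain, read 11.90, 12.15, 11.89 and 12.22 in DMD KO and 10.23, 10.66 and 10.23 in WT, 3.18-fold higher (1.67 ± 0.33, SE, limma's adjusted p = 0.00816). MYH1, a fast myosin heavy chain, read 11.57, 11.56, 11.18 and 11.59 in DMD KO and 12.85, 12.23 and 12.07 in WT, 1.88-fold lower (adjusted p = 0.00615). Myosin heavy chains are close in sequence, and shared signal between their probe sets was not tested. MYBPC2, the fast myosin-binding protein, and ACTN3, the fast-fibre actinin, were 2.19-fold and 1.69-fold lower (adjusted p = 0.00479 and 0.0126). ACTN2, the actinin of all fibres, was 1.81-fold higher, at 12.52, 12.47, 12.36 and 12.46 against 11.77, 11.76 and 11.27 (adjusted p = 0.00342).

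Structural genes of the sarcomere were mostly higher, with 13 of 33 up (39.4%) and 5 down (15.2%), or 8 and 4 without WT replicate 3. The falls were 3 without DMD KO replicate 3 or 4 and 2 without WT replicate 1. ACTN3 and MYOM2 are counted both among the sarcomere falls and among the fast-fibre falls. LMOD2, which sets the length of thin filaments, read 10.29, 10.58, 10.16 and 10.79 in DMD KO and 9.23, 7.96 and 8.45 in WT, 3.75-fold higher (adjusted p = 0.00261). FLNC, the filamin of the Z-disc, and XIRP1, which gathers at damaged myofibrils, were 1.95-fold and 1.7-fold higher (adjusted p = 0.0104 and 0.00999). ANKRD1, a stretch-responsive protein, read 9.82, 10.51, 10.70 and 10.30 in DMD KO and 9.78, 6.45 and 7.52 in WT. Its WT replicate 1 lay just under the lowest DMD KO animal, and the call (adjusted p = 0.0241) was lost in 5 of the 7 fits that left out 1 animal (highest adjusted p = 0.0866, without WT replicate 3). CSRP2, a LIM protein of smooth and immature muscle, was 2.04-fold lower (adjusted p = 0.00296).

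In the list of the purine nucleotide cycle and creatine kinase 6 of 20 measured genes fell (30%) and 2 rose (10%). The differences split into 10 positive and 10 negative, with a median of -0.06. The falls numbered 4 or 5 when 1 animal was left out, and the rises 0 without WT replicate 3 and 4 without WT replicate 2. AMPD1, the AMP deaminase of muscle, read 9.07, 9.72, 8.13 and 9.07 in DMD KO and 11.50, 10.84 and 10.91 in WT, 4.24-fold lower (adjusted p = 0.00117). AK1, the adenylate kinase, read 8.08, 8.37, 7.20 and 8.17 in DMD KO and 9.83, 9.39 and 9.54 in WT, 3.1-fold lower (adjusted p = 0.00194). In both, DMD KO replicate 3 was the lowest animal. AMPD1 is also counted among the fast-fibre falls above, and so is GPD1, given below. GADL1, a decarboxylase linked to muscle peptide precursors, differed by -2.35 ± 0.30 (adjusted p = 0.00085). GPD1, the glycerol phosphate dehydrogenase, was 2.11-fold lower, and of the glycolytic enzymes LDHA, PKM and TPI1 were 1.77-fold, 1.73-fold and 1.6-fold lower (adjusted p = 0.00144, 0.00209, 0.00789 and 0.0104). UGP2, which makes the sugar donor of glycogen, was 2.42-fold higher, at 12.24, 11.72, 12.12 and 12.18 against 11.08, 11.14 and 10.15 (adjusted p = 0.00395). Over the list of glycolysis and glycogen 6 of 31 fell (19.4%) and 4 rose (12.9%).

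Transcripts of the protein-making machinery leaned upward. Of 40 measured cytosolic ribosomal protein genes 21 rose (52.5% against 8.06%) and none fell, and 39 had a positive difference, with a median of 0.35. Without WT replicate 3 there were 7 rises (median 0.29), and without DMD KO replicate 2, 3 or 4 there were 10, 8 and 8, with 9 under quantile normalization. RPS29 read 7.65, 7.62, 7.60 and 7.66 in DMD KO and 6.81, 6.67 and 6.48 in WT, 1.97-fold higher (adjusted p = 0.000377), and RPL34 was 1.65-fold higher (adjusted p = 0.00192). Ribosomal proteins have many processed pseudogenes, and signal from such copies was not separated. Of 32 translation factors 8 rose (25%) and none fell. The rises were 4 without DMD KO replicate 3 or 4, 5 without WT replicate 3 or under quantile normalization, 13 without WT replicate 1 and 14 without WT replicate 2. Among them were EIF1B, an initiation factor, and EEF1G, an elongation factor subunit, at 2.07-fold and 1.64-fold (adjusted p = 0.00615 and 0.0125).

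Of 49 nuclear-encoded respiratory chain genes 8 rose (16.3%) and none fell. There were 4, with 1 fall, without WT replicate 3 and 16 without WT replicate 2, with 5 without DMD KO replicate 1, 2 or 4. Under quantile normalization 3 were higher and 4 lower. NDUFA1, a subunit of complex I, was 2.36-fold higher, at 8.57, 8.38, 8.03 and 8.49 against 7.45, 7.42 and 6.51 (adjusted p = 0.0106). At 3 months none of the 49 was higher and 11 were lower (1.6% over all named genes), and the change between ages was called for 18 of them. Mitochondrial ribosomal proteins had 3 of 50 called higher (6%, against 8.06% over all named genes) and none lower, or 6 and 2 without WT replicate 2.

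Chaperones of the cytosol rose in 9 of 27 measured genes (33.3%) and fell in 1, or 5 and none without WT replicate 3 and 8 and 3 under quantile normalization. HSF2, a heat shock transcription factor, read 9.56, 9.88, 9.87 and 9.92 in DMD KO and 8.25, 8.17 and 6.84 in WT, 4.16-fold higher (adjusted p = 0.00118), with WT replicate 3 far below the other WT animals and a difference of 1.60 without it. DNAJB6, a co-chaperone of the Z-disc, read 8.79, 8.92, 8.91 and 9.22 in DMD KO and 7.67, 7.69 and 7.34 in WT, 2.63-fold higher (adjusted p = 0.000377). HSPB1, the small heat shock protein that binds actin, was 2.43-fold higher (adjusted p = 0.00893). Of 16 chaperones of the endoplasmic reticulum 1 was higher and 1 lower.

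Of the white blood cell markers 1 was called. None of 14 macrophage, 14 T and NK cell, 4 neutrophil or 3 mast cell markers was called by limma (2, 1, 0 and 0 at an unadjusted p under 0.05), and 1 of 4 B cell markers, JCHAIN, the joining chain of secreted antibodies, rose (7.40, 7.38, 7.18 and 7.47 in DMD KO and 6.34, 6.43 and 6.31 in WT, adjusted p = 0.0021). The mean macrophage marker level was 7.26 to 7.30 in DMD KO and 7.10, 7.12 and 7.30 in WT. With array weights, and with the 2-day arrays alone, 2 macrophage markers were called higher. At 3 months 8 of the same 14 macrophage markers were called higher (5.76% over all named genes), and the change between ages was called for 6.

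Genes of complement rose. Of 17 measured complement and coagulation regulators 4 rose (23.5%) and none fell, whichever animal was left out. C1S and C1R, the proteases that start the classical pathway, were 2.26-fold and 1.58-fold higher (adjusted p = 0.00725 and 0.00972). MASP1, the protease of the lectin pathway, read 8.48, 8.59, 8.06 and 8.73 in DMD KO and 7.27, 7.55 and 7.49 in WT, 2.04-fold higher (adjusted p = 0.00172). CD59, which shields cells from complement pores, was 1.89-fold higher (adjusted p = 0.00303). FTL, the light chain of the iron store ferritin, was 1.89-fold higher (adjusted p = 0.00554).

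Interferon-response genes varied between animals of the same group. None of 35 measured genes was called by limma (2 at an unadjusted p under 0.05) and none had groups that did not overlap, against 26.9% over all named genes. HERC5, an antiviral ligase, read 7.59, 9.85, 7.19 and 10.14 in DMD KO and 6.15, 7.04 and 8.78 in WT. IFIT1, which binds foreign RNA, read 8.25, 9.70, 8.13 and 10.09 in DMD KO and 6.74, 7.48 and 8.63 in WT. CXCL10, a chemokine that interferon induces, read 5.37, 8.30, 5.41 and 9.09 in DMD KO and 5.28, 4.95 and 6.21 in WT. In these 3 genes DMD KO replicates 2 and 4 were the highest animals and WT replicate 3 the highest of its group, and their differences of 1.37, 1.43 and 1.56 had adjusted p of 0.315, 0.155 and 0.332. With array weights, which gave WT replicate 3 a weight of 0.215, 3 of the 35 were called higher, and IFIT1 passed (difference 2.06, adjusted p = 0.0291).

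Signalling genes had some of the lowest adjusted p among the rises. PDE4B, a phosphodiesterase that breaks down cyclic AMP, read 10.35, 10.29, 10.28 and 10.64 in DMD KO and 9.11, 8.49 and 8.31 in WT. It was 3.38-fold higher (1.76 ± 0.16, SE, limma's adjusted p = 0.000187). DDAH1, which removes an inhibitor of nitric oxide synthase, read 9.49, 9.46, 9.18 and 9.54 in DMD KO and 8.19, 7.93 and 7.92 in WT, 2.64-fold higher (adjusted p = 0.000187). SLC5A4, a member of the sodium and glucose transporter family, read 8.41, 8.23, 8.40 and 8.41 in DMD KO and 7.43, 7.23 and 7.17 in WT, 2.12-fold higher (adjusted p = 0.000187). Each of these has a gap between the groups wider than the spread inside either. KIF1B, a motor for mitochondria and vesicles, was 2.45-fold higher (adjusted p = 0.00023). EDNRB, an endothelin receptor, was 1.67-fold higher (adjusted p = 0.0153). NPR3, the clearance receptor of natriuretic peptides, read 11.30, 10.12, 10.69 and 10.62 in DMD KO and 8.35, 8.61 and 8.38 in WT, 4.72-fold higher (adjusted p = 0.0266). Although its groups lie more than 1 log2 unit apart, its call was lost in 5 of the 7 fits that left out 1 animal (highest adjusted p = 0.0759, without WT replicate 3).

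Some of the 12 largest rises belong to no list. LOC396711, annotated by number only, read 11.09, 12.05, 11.02 and 11.32 in DMD KO and 9.47, 8.34 and 8.75 in WT, 5.71-fold higher (adjusted p = 0.000377). LOC100516643 read 8.62, 8.86, 8.75 and 8.75 in DMD KO and 5.98, 6.21 and 6.20 in WT (difference 2.62 ± 0.29, adjusted p = 0.000416), with the WT animals below the 25th percentile of the arrays. SMPDL3A, a phosphodiesterase related to acid sphingomyelinase, was 4.43-fold higher (adjusted p = 0.00246). ASPA, the enzyme that splits N-acetylaspartate, is no leading gene and was chosen after its values were seen. It was lower, at 5.89, 7.11, 6.84 and 6.37 in DMD KO and 8.31, 9.23 and 7.76 in WT (difference -1.88, adjusted p = 0.012), and differed by 1.60 at 3 months (adjusted p = 0.00472 for the change).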

How the data were processed

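RNA from 13 pigs was measured on 1 array each. The deposited values are log2 summaries of 21893 probe sets, and the submitters' processing notes name Affymetrix Power Tools, with no version or settings known here. The log2 scale was inferred from the range of values (2.81 to 13.8). Values were used as deposited, and signal over background was not analysed here.

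Probe sets were named through the platform's annotation: 11028 had 1 gene symbol, 418 several and 10447 none. The brightest probe set over all arrays stood for each of 10283 genes. limma 3.58.1 in R 4.3.3 fitted 4 group means to the 13 arrays (lmFit and eBayes, 9 residual degrees of freedom, two-sided, Benjamini-Hochberg over all probe sets, called at an adjusted p under 0.05). The script was tested on simulated data. An adjusted p without a tool named beside it is from this fit.

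The genes and lists were chosen with earlier results of these data known. Named were the dystrophin complex and the largest rises and falls among called genes whose groups did not overlap. The called genes with the lowest adjusted p and leading called members of each list were named too. Uncalled members were named where their role orders the account. Alternatives were the 2-day arrays alone, other variance settings, quantile normalization, median centring, a filter on dim probe sets, array weights, a replicate block, the mean of all probe sets of a gene and leaving out each 2-day array. Promoter sequence was not analysed here.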

Additional observations from a re-analysis of the deposited data

Results flagged for a closer look

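In the group of 4 DMD KO animals at 2 days, 6 of the 129 genes described had 1 animal far from the others by Dixon's test at the 95% level. Chance flags about 1 in 20 groups, and the 6 flags are near that rate. The far animal was the highest for FBXO30 (11.37) and FTL (10.09), and the lowest for SLC5A4 (8.23), HSF2 (9.56), LOX (8.58) and MYH1 (11.18). All 6 are called genes, and in each the 4 DMD KO animals lay on 1 side of the 3 WT animals. The same holds for 1148 of the 1170 called genes.

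For 54 of the 129 genes the change of the genotype difference between ages (3 months minus 2 days) was itself called by limma (Benjamini-Hochberg adjusted p under 0.05). Over all named genes the share was 6.17%. However, 117 of the 129 were called at 2 days, and the change contains that same 2-day difference. A higher share thus follows in part from how the genes were chosen. The values in brackets are the change of the 54 genes on the log2 scale. Among matrix and connective-tissue genes these were COL1A1 (2.50), COL1A2 (2.26), COL3A1 (2.39), COL5A2 (1.54), SPARC (1.82), LOX (2.57), FKBP10 (0.80), POSTN (4.79), ASPN (4.13), KERA (5.18), FMOD (2.68), LUM (1.94), DCN (1.52), BGN (1.78), FN1 (2.78), VCAN (3.56), THBS1 (1.33), THY1 (1.78), LRRC17 (3.79), ANGPTL1 (2.15), CCDC80 (2.62) and NREP (1.44), all positive. Genes of cell division were TOP2A (2.53), KIF11 (2.46), KIF15 (2.16) and PCLAF (3.54). Among genes of growth signalling and metabolism the positive changes were IGF1 (2.44), PSAT1 (2.07), ASNS (1.53), ALDH1L2 (1.60), MSMO1 (2.04) and ASPA (3.48), and the negative ones INSR (-1.41), RORA (-2.09), PDE4B (-1.30), DDAH1 (-0.73), CTH (-1.82), ATF4 (-1.60) and FMO1 (-3.14). In the breakdown and chaperone genes the changes were negative for FBXO32 (-2.15), ZFAND5 (-0.88), RETREG1 (-2.30) and HSF2 (-1.73). Membrane repair and muscle structure held positive changes for S100A11 (2.85), ANXA1 (2.51) and CSRP2 (1.92) and negative ones for CAPN3 (-1.62) and SSPN (-1.21). The remaining negative changes were those of KIF1B (-0.93), EDNRB (-1.26), RPS29 (-0.81), MASP1 (-1.02), DLK1 (-0.88) and LOC100516643 (-2.65).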

How the results depend on the processing

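Of 117 called genes described, none changed direction under an alternative, and 106 kept their call whichever of the 7 animals was left out. With the 2-day arrays alone 1275 probe sets were called (2175 in all 13 arrays), with 493 named genes higher and 211 lower. Array weights gave 595 lower genes and 1892 probe sets for the change between ages (1105 without weights). Leaving out 1 animal gave 1143 to 3210 probe sets, 428 to 1194 higher and 179 to 465 lower genes, and 821 to 1265 probe sets for the change between ages. With the replicate block on the 2-day arrays alone, 80 probe sets, 25 higher and 14 lower genes were called, and 24 of the 117 kept their call. Animals that share only a replicate number did not deviate together (r = -0.20, 0.00 and -0.03 for numbers 1 to 3).

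Apart from the block and the animals left out, calls ended for 8 genes. With the 2-day arrays alone they were LAMA2 (adjusted p = 0.0738), SSPN (0.0745), ATF4 (0.0654), ANKRD1 (0.0761), EEF1G (0.0629) and ANXA1 (0.0578). Array weights ended those of SSPN (0.0841), FKBP5 (0.0632), THBS1 (0.0541) and ANKRD1 (0.101). Quantile normalization ended those of SSPN (0.122), FKBP5 (0.0594) and THBS1 (0.0653), median centring that of FKBP5 (0.0507) and the trend and robust setting that of SSPN (0.0511). The causes were not tested. Of uncalled genes, DMD, COL4A1, DDIT3 and ULK1 took either sign, each close to 0. The number of arrays limits the precision, and differences of dim genes have no fold here.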

Other observations

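Counts of lists not described above stand against 8.06% of all named genes called higher and 3.32% lower. Of 22 genes of the citric acid cycle and pyruvate dehydrogenase 4 were higher in DMD KO (18.2%) and none lower, and the count ran from 1 to 6 when 1 animal was left out. Calcium handling genes, which move calcium between the fibre's stores and its contractile apparatus, had 4 of 36 higher (11.1%) and 3 lower (8.33%), with none higher without DMD KO replicate 2 or WT replicate 3. In the list of fatty acid oxidation and ketone use 3 of 33 were higher (9.09%) and 2 lower (6.06%), and without WT replicate 2 there were 6 higher and none lower. Genes of the neuromuscular junction and of denervation had 1 of 13 higher (7.69%) and none lower. The rise was that of ANKRD1, which is also counted in the sarcomere list. Its call was lost when any animal but DMD KO replicate 1 or WT replicate 1 was left out. Immediate early genes, which respond within minutes to stress or handling, had 1 of 16 higher (6.25%) and none lower, and that call was lost when any animal but DMD KO replicate 1 was left out. Among cytokines, chemokines and their receptors 1 of 43 was higher (2.33%) and 3 were lower (6.98%). Matrix proteases and their inhibitors had none of 24 higher and 3 lower (12.5%). Of 8 endothelium markers 2 were higher (25%), and none was without WT replicate 3 or 1 or DMD KO replicate 2. None of 10 pericyte and smooth muscle markers and none of 5 nerve and Schwann cell markers was called by limma (3 and 0 at an unadjusted p under 0.05), while 1 pericyte marker was higher without WT replicate 1 and 1 lower with array weights.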
